A study of Mus musculus with 69 samples.

Results

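The genes described here are 31 ribosomal protein pseudogenes, the rows of the deposited gene table whose names begin with Rpl or Rps, end in -ps or in -ps and a number, and average 5 or more reads per mouse over 69 mice. The table lists 248 rows of that naming pattern among 42279 rows in all, so 217 fell below the mean of 5 and 31 stayed. Of the 31, 13 are named for large subunit proteins and 18 for small subunit proteins, and by these names they have 26 parent genes. Rplp2-ps1 and Rps23-ps were not aligned to theirs. The rule used neither line nor sex. At its edge, Rpsa-ps9 with a mean count of 5.07, Rps24-ps3 with 5.12 and Rpl31-ps15 with 5.20 lay just inside, and Rpl38-ps2 with 4.25, Rpl35a-ps4 with 4.01 and Rps25-ps1 with 3.99 lay just outside.

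Reads were counted in RNA from the hand-dissected ventral striatum of 2 kinds of mice. HDID1 is a line selected over generations for the blood ethanol its animals reach when they drink in the dark phase, and HSNpt is the outbred control stock, made by intercrossing several inbred strains. HDID1 gave 17 females and 18 males and HSNpt gave 17 of each sex, with 1 library per mouse. No transgene, deletion or drug separates the groups. Every animal of both lines took the same 4-day drinking test with a bottle of 20% ethanol, per the labels' protocols, and tissue was taken 3 weeks later, so no group was ethanol-naive.

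A ribosomal protein pseudogene is, in most cases, a processed copy: an mRNA of the parent gene was reverse transcribed in the germ line and inserted elsewhere in the genome, without introns and without the parent's promoter. Because ribosomal protein mRNAs are abundant, short and made in every cell, they have left more such copies than most gene families. A copy is transcribed only where its insertion site provides for it, and its transcript can be so close to that of the parent that short reads are hard to assign. Insertions of this kind can also be present in some mouse strains and missing from others.

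Of the 31 pseudogenes, 29 were found by name in the GENCODE M21 annotation of mm10, all but Rplp2-ps1 and Rps23-ps. The annotation lists 25 of them as processed pseudogenes, 2 as transcribed processed pseudogenes (Rps26-ps1 and Rps2-ps10) and 2 as protein coding (Rpl10-ps3 and Rpl9-ps6). By the deposited exon coordinates, 29 of the 31 have a single exon, while Rpl14-ps1 has 2 and Rplp2-ps1 has 4. The first exon of Rpl14-ps1 ends at base 45325456 of chromosome 7 and the second begins at base 45325458, too close for an intron. They lie on 16 chromosomes. For 11 the whole locus sits inside an intron of another gene, 2 overlap an exon of another gene, and 18 overlap no other gene. Rplp2-ps1 overlaps an exon of Wdr89 on the opposite strand, and Rps23-ps overlaps Gm5148 on the opposite strand and Rps23-ps1 on its own, so reads of Rplp2-ps1 are uncertain if counting did not use strand, and those of Rps23-ps are uncertain either way.

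The copies are close to their parents in sequence. Over the aligned bases the identity of a pseudogene to its parent transcript ranged between 92.2% and 100%, with a median of 99.0% over 29 copies, and 28 of 29 reached 95%. In 16 of the 29 the longest frame from an ATG is at least as long as the longest in the parent transcript. That frame was not matched to the coding sequence, so a copy outside the 16 need not have a broken frame. Rpl28-ps1, identical to the parent along its whole length, has 137 codons against 165, and Rps10-ps1 has 165 against 260. The share of 50-base windows of a copy found in no other annotated mouse transcript ranged between 0% and 90.5%, with a median of 23.3%, and for 100-base windows the median was 56.2%. No such unique 50-base window exists in 7 copies, and 6 of these 7 are identical to the parent along their whole length: Rpl10a-ps1, Rpl28-ps1, Rpl31-ps8, Rps13-ps2, Rps16-ps2 and Rps6-ps4. Reads counted for those 6 cannot be told from parent reads by the annotated sequence alone. How reads that match several places were counted is not given in the sources used here.

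The stretches below belong to 3 pseudogenes that were on in some mice and off in others, each with the same stretch of its parent, read 5′ to 3′ from GENCODE M21 transcripts on mm10. They show how few bases separate a copy from its parent. Capitals mark the bases that differ within the pair.

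Rpl15-ps2 is the copy of Rpl15, which encodes a large subunit protein. It lies at chr9:72060937-72061549 on the plus strand, within an intron of Tcf12, a transcription factor gene read in the opposite direction. Its 613 annotated bases match Rpl15 at 98.7%, with 8 differing bases. Of these, 4 lie in codons that encode a different amino acid and 4 do not. The annotated copy begins at the last base of the parent's start codon. Only 15.8% of its 50-base windows are unique. The stretch covers bases 1 to 120 of the copy and holds 3 of the differences, G13A, T79C and C102T, with the parent's base first, the position counted from the first base of the annotated copy, and the copy's base last.
Rpl15-ps2: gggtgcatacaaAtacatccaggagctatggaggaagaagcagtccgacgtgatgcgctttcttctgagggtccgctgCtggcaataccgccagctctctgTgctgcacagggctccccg
Rpl15: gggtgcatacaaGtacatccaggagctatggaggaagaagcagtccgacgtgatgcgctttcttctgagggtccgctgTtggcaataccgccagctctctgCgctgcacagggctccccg

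Rpsa-ps10 is the copy of Rpsa, which encodes a small subunit protein that also serves as a laminin receptor. The exon table places it at chr3:150072590-150073620 on the minus strand, where it overlaps no other gene. Its annotated 885 bases match Rpsa at 99.3%, with 6 differing bases, of which 1 changes an amino acid, and the frame of 295 codons is open throughout. Of its 50-base windows 17.7% are unique. The stretch covers bases 100 to 219 of the copy and holds 2 of the differences, T210C and C219T.
Rpsa-ps10: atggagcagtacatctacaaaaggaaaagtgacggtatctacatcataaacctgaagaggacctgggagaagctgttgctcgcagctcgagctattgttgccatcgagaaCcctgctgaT
Rpsa: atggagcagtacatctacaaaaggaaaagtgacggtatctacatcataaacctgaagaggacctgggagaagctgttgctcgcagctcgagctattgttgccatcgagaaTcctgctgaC

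Rps15a-ps8 is the most diverged of the 29 copies, at 92.2% identity to Rps15a, a small subunit gene. It lies at chr4:53791070-53791456 on the minus strand and overlaps no other gene. It differs from the parent at 30 bases, 20 of which lie in codons that encode a different amino acid. Of its 50-base windows 90.5% are unique, so its reads are the easiest to assign of the 4 on-off pseudogenes. The stretch covers bases 1 to 120 and holds 15 of the differences.
Rps15a-ps8: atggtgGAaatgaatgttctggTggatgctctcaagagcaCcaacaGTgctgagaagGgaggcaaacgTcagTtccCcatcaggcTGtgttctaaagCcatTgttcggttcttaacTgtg
Rps15a: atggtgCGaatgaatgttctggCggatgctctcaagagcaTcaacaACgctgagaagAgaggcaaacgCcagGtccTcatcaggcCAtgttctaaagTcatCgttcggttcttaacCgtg

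The on-off pseudogenes were found without reference to line. For every gene the 69 log2 CPM values (CPM, counts scaled to TMM library sizes, with a prior count of 2) were sorted, and a gene was called on-off where the largest gap between neighbouring mice that leaves at least 5 mice on either side was 1 log2 unit or more. By this rule 4 of the 31 pseudogenes were on-off, or 12.9%, beside 66 of 17538 genes with a mean count of 5 or more, or 0.376%. Among 37 other pseudogenes of the table (names ending in -ps or -ps and a number, not ribosomal) 6 were on-off, or 16.2%, and among 79 ribosomal protein genes 1 was, Rpl26, with a gap of 1.33, named after its value was seen. The 4 are Rps2-ps10 with a gap of 3.51, Rpsa-ps10 with 3.37, Rpl15-ps2 with 2.88 and Rps15a-ps8 with 1.05. The other 27 pseudogenes had largest gaps between 0.14 and 0.71.

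**Figure D1:**
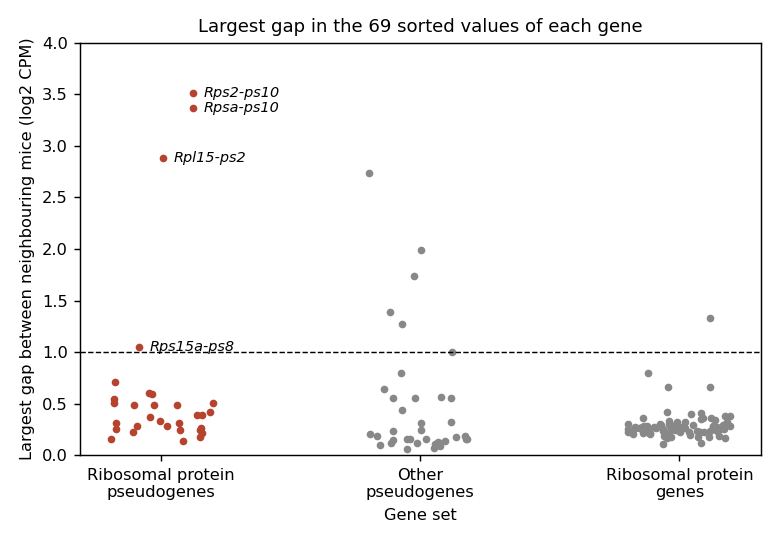
Largest gap in log2 CPM between neighbouring mice (vertical axis) for each of 31 ribosomal protein pseudogenes, 37 other pseudogenes and 79 ribosomal protein genes; each point is a gene and the dashed line marks a gap of 1. The points for Rps2-ps10, Rpsa-ps10 and Rpl15-ps2 stand above 2.8, Rps15a-ps8 lies just over the line at 1.05, and the other 27 lie at 0.71 or below.

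Rpl15-ps2 was the pseudogene whose on state was rare in HDID1 and common in HSNpt. It was on in 4 of 35 HDID1 mice, or 11.4%, and in 23 of 34 HSNpt mice, or 67.6%. Mice that were off had 0 to 4 reads and mice that were on had 40 to 175, so no mouse lay between. The 4 HDID1 mice that were on had 2.62 to 4.59 CPM, and the 23 HSNpt mice that were on had 2.42 to 10.8 CPM. Both sexes showed the same direction, with 2 of 17 HDID1 females and 2 of 18 HDID1 males on, against 12 of 17 HSNpt females and 11 of 17 HSNpt males. The odds of being on were 0.065 times as high in HDID1 as in HSNpt (95% interval 0.013 to 0.245; two-sided Fisher's exact test p = 1.65e-06, adjusted over all 66 on-off genes to 1.09e-05). Of those 66 genes 22 passed this test, or 33.3%, with 6 on in a larger and 16 in a smaller share of HDID1 than of HSNpt mice, and Rpl15-ps2 was 1 of the 22. The CPM levels were 0 at the lowest, 0 at the median and 4.59 at the highest in HDID1 mice, against 0, 2.92 and 10.8 in HSNpt mice. The ranges overlap at 0, where 30 mice of both lines together had no read. A count of 0 allows up to 3 reads, or 0.213 CPM at the lowest library total, counting error only.

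Another copy of Rpl15 was on in the same mice. Gm10020, which the RefSeq gene table of GRCm38.p6 lists as Rpl15-ps6, lies at chr15:52477617-52478228 on the minus strand of mm10 and falls outside the 31 by its name alone; it was looked at after its values were seen. It was on by the same gap rule in 27 mice, and in 69 of 69 mice its state was that of Rpl15-ps2. It had 32 to 204 reads in the 27 mice on for Rpl15-ps2 and 0 to 3 reads in the other 42. In CPM the lowest, median and highest mouse had 0, 0 and 3.79 in HDID1, against 0, 2.80 and 12.6 in HSNpt, a log2 fold change of -2.82 with SE 0.56 and an adjusted p of 2.93e-04 by edgeR. Gm10020 differs from Rpl15-ps2 at 8 of 610 aligned bases and from Rpl15 at 2 of 612, and it has the parent's bases all through the stretch printed above. The 2 loci share 59.4% of the 50-base windows of Rpl15-ps2, all of them windows found in a further annotated gene too. Which locus the reads came from was not tested. For the other 3 on-off pseudogenes the nearest of the 66 genes had the same state in 55 mice (Rps2-ps10), 48 mice (Rpsa-ps10) and 57 mice (Rps15a-ps8) of 69. Such a match depends in part on how many mice were on, 50 for Rps2-ps10, 28 for Rpsa-ps10 and 59 for Rps15a-ps8. How many mice would match with no relation between the genes was not computed.

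Parent Rpl15 averaged 151 ± 47.2 CPM in HDID1 and 136 ± 42.1 CPM in HSNpt mice (SD, n = 35 and 34), with a log2 fold change of 0.15, SE 0.09 and adjusted p = 0.261 by edgeR. Relative to the Rpl15 count of the same mouse, Rpl15-ps2 reads came to at most 0.101% in mice that were off and to between 1.96% and 6.06% in mice that were on. Tcf12, the gene around it, had 51.2 ± 9.69 CPM in HDID1 and 53.4 ± 7.24 CPM in HSNpt mice (SD), a log2 fold change of -0.06 with an adjusted p of 0.510 by edgeR.

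Rpsa-ps10 was the most abundant of the 31 per unit length, at 27.5 CPM per kilobase of exon on average over all mice, against a median of 1.93 over the 31. It was on in 10 of 35 HDID1 mice and 18 of 34 HSNpt mice, or 28.6% and 52.9%. Mice that were off had 3 to 43 reads and mice that were on had 598 to 4486. Its CPM levels were 0.372 at the lowest, 0.851 at the median and 247 at the highest in HDID1, against 0.182, 34.5 and 280 in HSNpt. Unlike Rpl15-ps2, no mouse had 0 reads, and the off mice kept 0.0447% to 0.243% of the Rpsa count while the on mice had 8.86% to 20.8% of it. The odds ratio of being on was 0.361 (95% interval 0.116 to 1.07; two-sided Fisher's exact test p = 0.0514, adjusted 0.0870), so the shares did not differ past the threshold of 0.05.

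Within HDID1 the Rpsa-ps10 on state was found in 8 of 17 females and 2 of 18 males, and within HSNpt in 8 of 17 females and 10 of 17 males. The line difference in level was 0.81 on the log2 scale in females (SE 0.87) and -2.37 in males (SE 0.90). The difference between these, the line by sex interaction, was -3.18 with SE 1.25 and an adjusted p of 0.978 by edgeR, so it did not pass. Parent Rpsa averaged 661 ± 512 CPM in HDID1 and 521 ± 239 CPM in HSNpt mice (SD), a log2 fold change of 0.33 with adjusted p = 0.149 by edgeR.

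Rps2-ps10 derives from Rps2, a small subunit gene, and lies on chromosome 18 between bases 61259008 and 61259972 on the minus strand, inside an intron of Pde6a, a photoreceptor phosphodiesterase gene read in the opposite direction. It was on in 29 of 35 HDID1 mice and 21 of 34 HSNpt mice, or 82.9% and 61.8%. Off mice had 0 or 1 read and on mice had 30 to 243. In CPM the lowest, median and highest mouse had 0, 3.85 and 14.2 in HDID1, against 0, 3.93 and 13.9 in HSNpt. The ranges over all mice were nearly the same. Among mice that were on, the median was 4.41 CPM in the 29 HDID1 mice and 7.05 CPM in the 21 HSNpt mice. Those ranges, 1.91 to 14.2 and 2.66 to 13.9 CPM, overlapped, and the difference was not tested. The odds ratio of being on, 2.94, had a 95% interval of 0.870 to 11.1 (two-sided Fisher's exact test p = 0.0626, adjusted 0.101). The copy matches Rps2 at 99.4% and differs at 5 bases, all of them silent. No 50-base window of Rps2-ps10 is unique and only 3.08% of its 100-base windows are, since 71 other annotated genes share at least a 50-base window with it. Off mice nevertheless had at most 0.0574% of the Rps2 count at this locus, and on mice had 0.999% to 5.23%.

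Rps15a-ps8 passed the gap rule narrowly, with only the step between 0 and 2 reads empty. It was on in 30 of 35 HDID1 mice and 29 of 34 HSNpt mice, 85.7% and 85.3% (odds ratio 1.03, 95% interval 0.213 to 5.01; two-sided Fisher's exact test, adjusted p = 1). The 10 off mice had 0 reads, and the on mice spread without a break between 2 and 198 reads. Its levels were 0, 0.833 and 13.5 CPM at the lowest, median and highest in HDID1, against 0, 0.859 and 6.54 CPM in HSNpt, so the lines overlapped almost wholly.

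**Figure D2:**
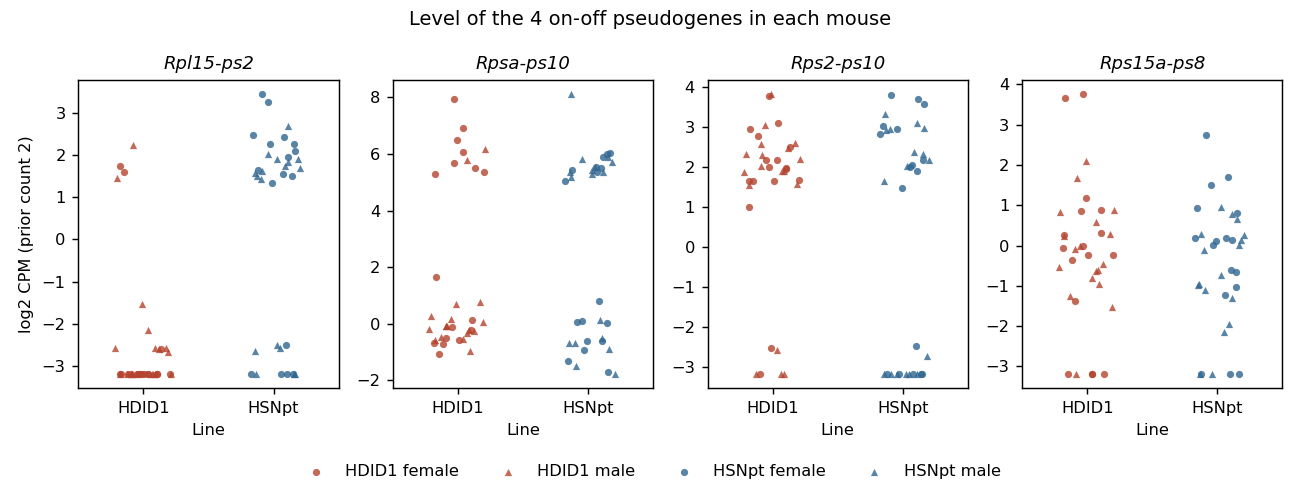
Level of the 4 on-off pseudogenes in every mouse as log2 CPM with a prior count of 2, HDID1 on the left and HSNpt on the right of each panel, circles for females and triangles for males. Rpl15-ps2 has 4 HDID1 and 23 HSNpt mice above its gap, Rpsa-ps10 has 10 and 18, Rps2-ps10 has 29 and 21, and Rps15a-ps8 has 30 and 29.

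The on-off states came in different mice for different pseudogenes. Every mouse had at least 1 of the 4 on, but this rests on Rps15a-ps8, whose on state begins at 2 reads. HDID1 female 17 and HDID1 males 9, 13 and 18 were on for Rps15a-ps8 alone. Among HDID1 mice 5 had 1 on, 23 had 2, 6 had 3 and 1 had all 4, and among HSNpt mice 1 had 1 on, 13 had 2, 16 had 3 and 4 had all 4. Rpl15-ps2 and Rpsa-ps10 were both on in 1 HDID1 and 9 HSNpt mice, and both off in 22 HDID1 and 2 HSNpt mice.

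The line effect on expression levels was read from edgeR's quasi-likelihood test fitted to all genes. In it 1975 of 16867 genes passed an adjusted p under 0.05, or 11.7%, with 1008 higher (5.98%) and 967 lower (5.73%) in HDID1. Of the 31 pseudogenes 19 passed the filter on low counts and 12, with mean counts between 5.07 and 9.06, did not. Of the 19, 1 passed the test, Rpl15-ps2, which averaged 0.401 ± 1.10 CPM in HDID1 and 2.88 ± 2.65 CPM in HSNpt mice (SD, n = 35 and 34). Its log2 fold change was -2.83 with SE 0.57 and an adjusted p of 3.70e-04, and 2 of 35 HDID1 mice exceeded the median HSNpt mouse. Among mice on for it the median was 3.08 CPM in the 4 HDID1 mice and 3.61 CPM in the 23 HSNpt mice, with overlapping ranges, and this difference was not tested.

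Within females 264 of 16867 genes passed (1.57%) and within males 714 (4.23%). Rpl15-ps2 was lower in HDID1 females, with a log2 fold change of -3.26, SE 0.82 and an adjusted p of 0.0218 by edgeR, while the HDID1 males had a log2 fold change of -2.39 with SE 0.78 and an adjusted p of 0.0623. The interaction was 0.87 with SE 1.13 and an adjusted p of 0.978. No pseudogene and no gene at all passed the interaction test (0 of 16867, or 0%, by edgeR, under TMM and under RLE scaling), where 849 genes and 2 of the 19 pseudogenes had an unadjusted p under 0.05.

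A fit on all 17538 genes with a mean count of 5 or more took in all 31 pseudogenes. It called 1992 genes, or 11.4%, and 2 of the 31, Rpl15-ps2 again and Rps6-ps4. Rps6-ps4 is an identical copy of Rps6, which encodes the small subunit protein phosphorylated downstream of mTOR signalling, and was named after its values were seen. It averaged 0.488 ± 0.411 CPM in HDID1 and 0.231 ± 0.198 CPM in HSNpt mice (SD), a log2 fold change of 0.99 with SE 0.24 and an adjusted p of 0.00427, and 31 of 35 HDID1 mice exceeded the median HSNpt mouse. In reads, the median was 6 in HDID1 (range 1 to 39) and 3 in HSNpt (range 0 to 15), so the lines overlapped and the counts were small. Its mean over all mice, 6.42 reads, was just above the cut of 5, and the median HSNpt mouse lay below that cut. Its place among the 31 and in this fit may therefore rest on the HDID1 counts, which limits this call. Parent Rps6 had 200 ± 109 CPM in HDID1 and 174 ± 73.8 CPM in HSNpt mice (SD), a log2 fold change of 0.19 and an adjusted p of 0.329. No 50-base window of Rps6-ps4 is unique, so its reads could be parent reads by sequence.

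The wider fit was also read within each sex. In females 1 of 31 passed, Rpl15-ps2, beside 1.57% of all genes, and in males 2 of 31 passed, or 6.45%, beside 3.94% of all genes. The 2 were Rps6-ps4 and Rps15-ps2, a copy of the small subunit gene Rps15, both higher in HDID1 males, both left out by the filter on low counts, and Rps15-ps2 named after its values were seen. In males Rps6-ps4 averaged 0.619 ± 0.513 CPM in HDID1 and 0.216 ± 0.177 CPM in HSNpt (SD, n = 18 and 17), a log2 fold change of 1.51 with SE 0.33 and an adjusted p of 0.00397 by edgeR, and 17 of 18 HDID1 males exceeded the median HSNpt male. Rps15-ps2 averaged 0.716 ± 0.935 CPM in HDID1 males and 0.203 ± 0.139 CPM in HSNpt males (SD), a log2 fold change of 1.74 with SE 0.43 and an adjusted p of 0.0116 by edgeR. Its median was 4.5 reads in HDID1 males (range 1 to 56) and 4 in HSNpt males (range 0 to 10), and 10 of 18 HDID1 males exceeded the median HSNpt male, so most mice of the lines overlapped. The mean over all mice was 6.42 reads for Rps6-ps4 and 6.62 for Rps15-ps2, near the cut of 5, and the median HSNpt male had 3 and 4 reads. Their place in this fit may therefore rest on the groups with more reads, which limits both calls. The interaction passed for neither, with an adjusted p of 0.949 for Rps6-ps4 and 0.624 for Rps15-ps2. Without the 8 libraries described next, left out after the data were seen, 6 of 31 passed in males, beside 10.8% of all genes, and 0 of 31 in females, beside 1.21%, where 3 had an unadjusted p under 0.05 by edgeR. Rps6-ps4 and Rps15-ps2 again passed in males, with adjusted p-values of 6.43e-04 and 0.0113. Rpl15-ps2 then passed in males (-2.45, adjusted p = 0.0352) and not in females (-2.48, adjusted p = 0.176).

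Across all 31 in the wider fit of both sexes 23 had a positive and 8 a negative log2 fold change, with a median of 0.27, beside a median of 0.01 over all 17538 genes, of which 9064 were positive. The 79 ribosomal protein genes had a median of 0.16, with 68 positive and 11 negative. The level of the pseudogenes went with a few libraries. In 8 libraries, 4 HDID1 and 4 HSNpt, the summed CPM of the 79 ribosomal protein genes lay more than 3 scaled median absolute deviations from the median of all libraries, on the high side in each, at 21966 to 67514 CPM, against 10663 to 20667 CPM in the other 61. The 27 pseudogenes that were not on-off summed to 61.9 to 190 CPM in those 8 libraries and 23.5 to 75.5 CPM in the other 61, and for all 27 the highest mouse was among the 8. Without the 8 libraries the median over the 31 was 0.13, with 21 positive and 10 negative.

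Markers of other cell types also stood apart in some of these 8 libraries. The 6 microglia markers summed to 319 to 449 CPM in the 8, against 204 to 364 CPM in the other 61, and in 6 of the 8 the sum exceeded that of every other library; as a mean log2 level 7 of the 8 did. The 5 red blood cell markers summed to 41.7 to 332 CPM in the 8, against 17.3 to 118 CPM in the other 61, with 4 of the 8 above every other library. The 6 hypothalamus markers summed to 10.5 to 1697 CPM in the 8, against 2.80 to 563 CPM in the other 61, with 2 of the 8 above. The 6 astrocyte markers summed to 1684 to 2786 CPM in the 8, against 1349 to 2493 CPM in the other 61, also with 2 of the 8 above, though none was above as a mean log2 level. For choroid plexus markers 1 of the 8 was above by the sum, and for oligodendrocyte markers 1 by the mean log2 level. By either measure none of the 8 was above every other library for markers of spiny neurons, endothelial cells or the cortex. The part of these markers in the levels of the pseudogenes was not tested.

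**Figure D3:**
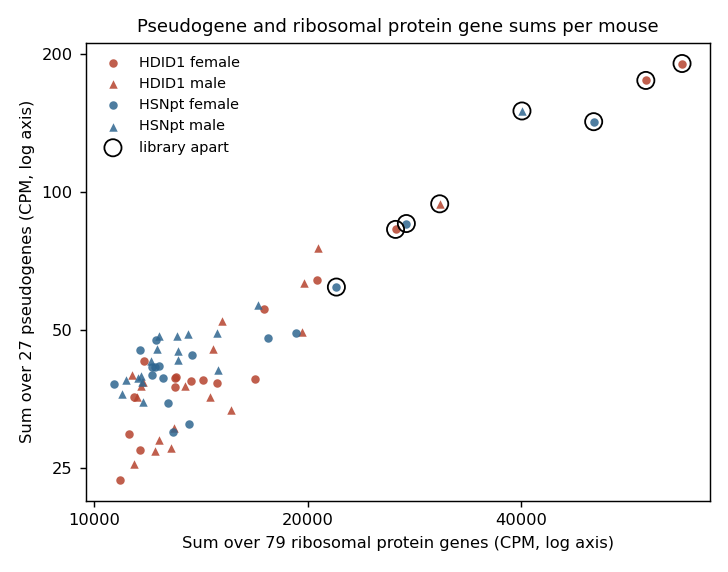
Summed CPM of the 27 pseudogenes that are not on-off (vertical, log axis) against summed CPM of 79 ribosomal protein genes (horizontal, log axis), a point per mouse; red is HDID1, blue is HSNpt, circles are females and triangles males. The 8 ringed libraries, 4 of each line, have gene sums of 21966 CPM and more and pseudogene sums of 61.9 to 190 CPM.

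How closely a copy followed its parent was described by the spread between mice of the log2 ratio of copy to parent. Of the 27 pseudogenes that were not on-off, 22 had a smaller standard deviation of that ratio than of their own log2 level. The closest was Rps16-ps2, named after its values were seen, a copy of Rps16, whose small subunit protein sits in the ribosome head, with a standard deviation of 0.27 for the ratio against 0.68 for its level. It is identical to the parent and stood at a median of 2.46% of the Rps16 count in HDID1 mice and 2.15% in HSNpt mice. The ratios are of reads, not adjusted for length, and serve only to compare mice.

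**Figure D4:**
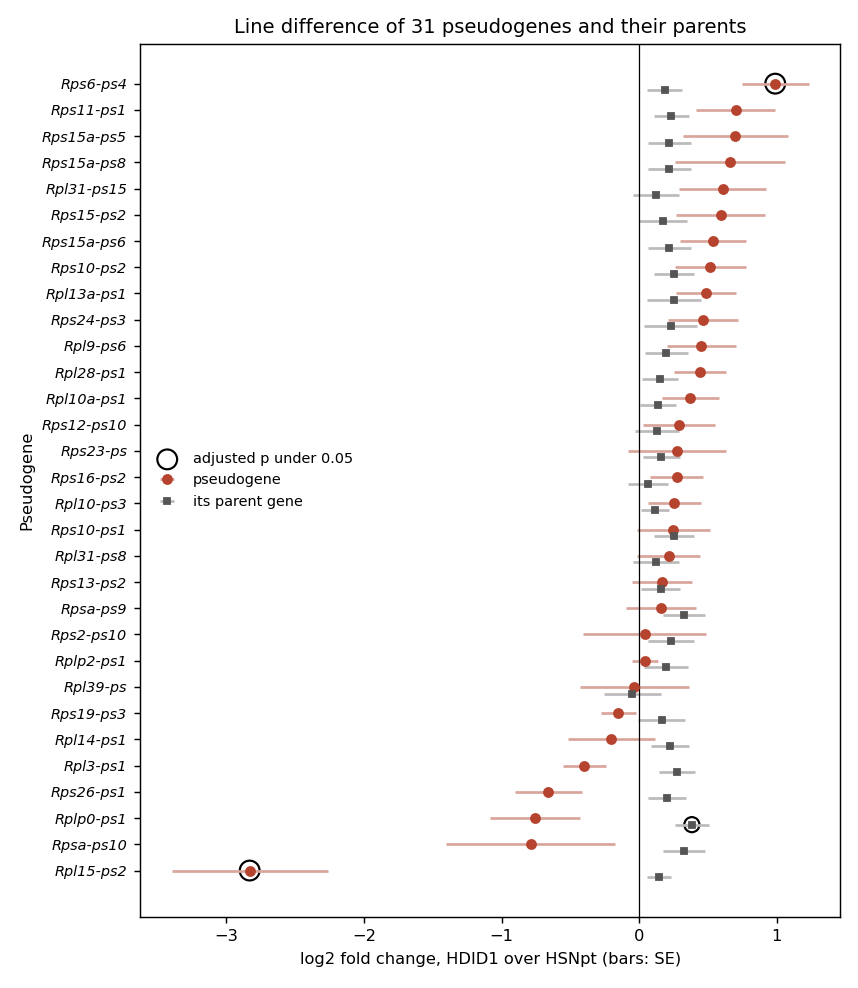
Log2 fold change of HDID1 over HSNpt (horizontal) for 31 pseudogenes, red circles, and their parent genes, grey squares, with bars of 1 SE, from the fit on genes with a mean count of 5 or more; black rings mark adjusted p under 0.05. Rpl15-ps2 at -2.83, Rps6-ps4 at 0.99 and the parent Rplp0 at 0.38 are ringed, and the parents lie between -0.05 and 0.38.

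Beside the on-off genes, the pseudogenes of highest mean CPM were Rpl3-ps1, Rpl14-ps1 and Rplp2-ps1, and none of the 3 passed the test for line. Rpl3-ps1, a copy of Rpl3, whose large subunit protein reaches toward the peptidyl transferase centre, matches it at 99.8% with 2 differing bases over 1210. Its level was 6.37, 14.9 and 41.3 CPM at the lowest, median and highest in HDID1 mice, against 0.998, 19.1 and 54.8 CPM in HSNpt mice. The log2 fold change was -0.39 (SE 0.15, adjusted p = 0.0819 by edgeR), and 8 of 35 HDID1 mice exceeded the median HSNpt mouse. Parent Rpl3 had a log2 fold change of the opposite sign that did not pass, with 537 ± 321 CPM in HDID1 and 442 ± 172 CPM in HSNpt mice (SD; log2 fold change 0.28, adjusted p = 0.148). As a share of the Rpl3 count, Rpl3-ps1 had a median of 2.52% in HDID1 mice and 5.01% in HSNpt mice. The ranges, 1.17% to 4.72% and 0.225% to 6.57%, overlap, but the highest HDID1 share lay below the HSNpt median. This difference in share was not tested.

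The lowest Rpl3-ps1 level and the lowest share of Rpl3 both came from the library of HSNpt female 5, with 15 reads for Rpl3-ps1 and 6674 for Rpl3, or 0.998 CPM and 0.225%. The next lowest level was 6.37 CPM, in HDID1 female 17. Without HSNpt female 5, left out after its value was seen, Rpl3-ps1 passed the test with a log2 fold change of -0.44, SE 0.13 and an adjusted p of 0.0281, and 10.1% of all genes did. It also passed when counts were scaled to the summed ribosomal protein gene counts (-0.51, adjusted p = 0.0223), where 1.82% of all genes did.

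Rpl14-ps1 derives from Rpl14, a large subunit gene, and lies inside an intron of Trpm4, a cation channel gene read in the opposite direction. Its level spread widely in both lines, at 0.868, 1.90 and 35.7 CPM for the lowest, median and highest HDID1 mouse, against 0.974, 4.16 and 39.9 CPM in HSNpt. Its largest gap of 0.39 was too small for the on-off rule, and 13 of 35 HDID1 mice exceeded the median HSNpt mouse (log2 fold change -0.19, SE 0.32, adjusted p = 0.710). Parent Rpl14 had 324 ± 207 CPM in HDID1 and 275 ± 127 CPM in HSNpt mice (SD), a log2 fold change of 0.23 and an adjusted p of 0.268. Rplp2-ps1, named for Rplp2, which encodes an acidic protein of the ribosomal stalk, varied least between mice, with 2.53, 3.52 and 7.65 CPM at the lowest, median and highest in HDID1, against 2.49, 3.72 and 6.17 CPM in HSNpt. Its log2 fold change of 0.05 had SE 0.10 and an adjusted p of 0.767. Parent Rplp2 had 243 ± 204 CPM in HDID1 and 209 ± 107 CPM in HSNpt mice (SD; adjusted p = 0.416).

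**Figure D5:**
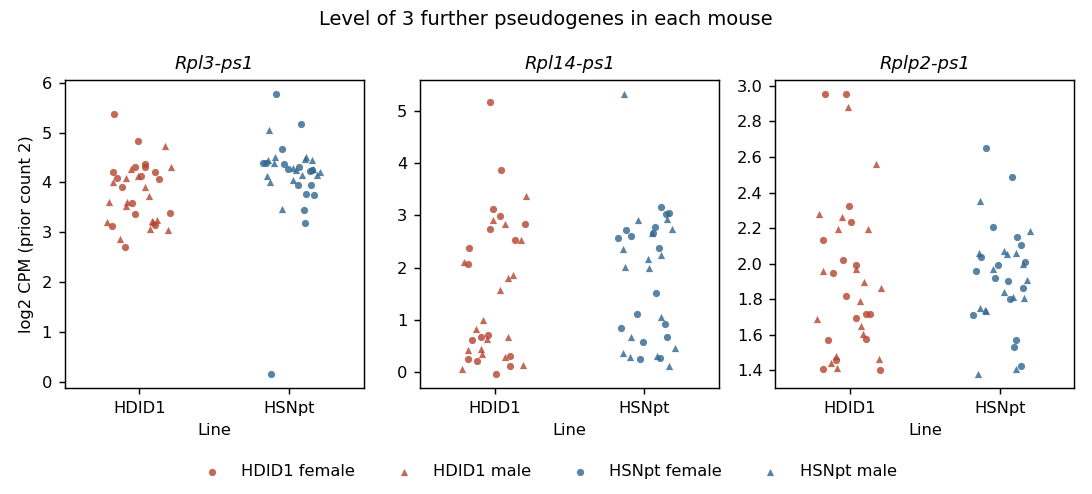
Level of Rpl3-ps1, Rpl14-ps1 and Rplp2-ps1 in every mouse as log2 CPM with a prior count of 2, HDID1 left of HSNpt in each panel, circles for females and triangles for males. The lines overlap in all 3, 1 HSNpt female lies far below the rest for Rpl3-ps1, and the vertical axes differ between panels.

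The other 24 pseudogenes averaged 0.289 to 3.32 CPM over all mice. Of these, 12 were tested, with log2 fold changes between -0.66 and 0.71, 10 of them positive, and adjusted p-values between 0.0651 and 0.620. Nearest to the threshold was Rps26-ps1, a transcribed processed copy of the small subunit gene Rps26 within an intron of Wwp2, named after its values were seen. It averaged 0.891 ± 0.797 CPM in HDID1 and 1.38 ± 0.830 CPM in HSNpt mice (SD), a log2 fold change of -0.66 with SE 0.24 and an adjusted p of 0.0651. Without the 8 libraries, where 13.5% of all genes passed, it did too (-0.76, SE 0.23, adjusted p = 0.0177), as did Rpl28-ps1, an identical copy of the large subunit gene Rpl28 that was also named after its values were seen, at 0.33 (SE 0.11, adjusted p = 0.0409). Rps26-ps1 passed as well by DESeq2 (-0.67, adjusted p = 0.0496, 11.2% of all genes). With counts scaled to ribosomal protein genes it passed by edgeR (-0.88, adjusted p = 0.0104, 1.82%). It did not pass under RLE scaling, in the wider fit of all libraries, with no filter on low counts or in either sex. Nor did it pass without HSNpt female 5 or without the libraries apart in spiny neuron markers. In the 12 that the filter left out, log2 fold changes in the wider fit ranged between -0.76 and 0.99, with 10 positive, 2 negative and a median of 0.48.

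Of the 26 parent genes all were tested and 1 passed, or 3.85% beside 11.7% of all genes. It was Rplp0, whose product is the core of the ribosomal stalk. It averaged 192 ± 84.8 CPM in HDID1 and 146 ± 57.9 CPM in HSNpt mice (SD), a log2 fold change of 0.39 with SE 0.12 and an adjusted p of 0.0300, and 30 of 35 HDID1 mice exceeded the median HSNpt mouse. Of the 79 ribosomal protein genes, 2 rose in HDID1, Rplp0 and Rps3a1, and 1 fell, Rpl34, or 3.8% beside 11.7% of all genes. The median log2 fold change was 0.17 over the 79 and 0.01 over all 16867 genes in that fit. Rps3a1, which encodes a small subunit protein near the mRNA exit, averaged 220 ± 166 CPM in HDID1 and 132 ± 83.7 CPM in HSNpt mice (SD; log2 fold change 0.73, SE 0.20, adjusted p = 0.0100). Rpl34, a large subunit gene, averaged 42.6 ± 70.7 CPM in HDID1 and 115 ± 128 CPM in HSNpt mice (SD; log2 fold change -1.54, SE 0.30, adjusted p = 2.24e-04). Without the 8 libraries 8 of the 79 rose and 4 fell, where 13.5% of all genes passed. Of the other pseudogenes 30 of 37 were tested, and 3 rose and 4 fell, 23.3% beside 11.7% of all genes, with a median log2 fold change of 0.05. In bulk tissue, fewer cells of a type and less RNA per cell cannot be told apart for any of these genes.

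Between the sexes 16 of 16867 genes passed, or 0.0949%, and none of the 19 pseudogenes did (4 had an unadjusted p under 0.05 by edgeR). The male minus female log2 fold change was negative for 18 of the 19, with a median of -0.29, and for all 79 ribosomal protein genes, with a median of -0.33 and 0 passing, 47 of them at an unadjusted p under 0.05. Of the 8 libraries with high ribosomal protein gene sums 6 were female, 3 of each line. Without the 8, the 19 pseudogenes split into 11 positive and 8 negative with a median of 0.01, and the 79 genes into 36 and 43 with a median of -0.0020.

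Library totals ranged between 14772653 and 22150746 counts in HDID1 and between 14077983 and 35257422 in HSNpt mice. Markers of spiny projection neurons, the main neurons of the striatum, were detected at a median above 1 CPM for 13 of 14 genes listed, all 13 that were found by name, and summed to 1119 to 11255 CPM in HDID1 and 2662 to 14369 CPM in HSNpt mice. In 6 libraries, 5 HDID1 and 1 HSNpt, their mean log2 level lay more than 3 scaled median absolute deviations from the median. Rpl15-ps2 fell by 3.18 on the log2 scale without those 6 (SE 0.59, adjusted p = 1.60e-04 by edgeR), where 5.83% of all genes passed. Markers of the choroid plexus summed to 26.1 to 5530 CPM in HDID1 and 17.7 to 5484 CPM in HSNpt, and those of the hypothalamus to 5.46 to 1697 CPM and 2.80 to 464 CPM. Their part in the levels of the pseudogenes was not tested.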

How the data were processed

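The files the authors deposited hold raw counts for genes and exons in 69 libraries, per the file headers. Per the labels' protocols the libraries were poly-A selected and stranded. Per the submitters' processing notes, the tools were STAR, CASAVA, FastQC, edgeR and bedtools, on mm10. The sources used here give no versions, and neither the treatment of reads that match several places nor the use of strand in counting.

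Gene counts were filtered with filterByExpr on the 4 groups by line and sex, scaled by TMM and tested in R 4.3.3 with the quasi-likelihood test of edgeR 4.0.16, a mean per group, Benjamini-Hochberg adjustment over all genes tested and a limit of 0.05. The contrast for line takes HDID1, averaged over its sexes, minus HSNpt likewise. The interaction is the line effect in males minus that in females. Effects within a sex, also where given as males or females alone, are contrasts in the fit of both sexes and share its estimate of spread. SE is the absolute log2 fold change divided by the root of F. CPM uses TMM library sizes. Replicate numbers follow sample order and pair nothing, and mice are separate animals per the labels. The tests take mice as independent, and only the HDID1 line and the HSNpt stock were compared. The p-values therefore do not measure the spread between independently selected lines. No batch is given in the labels.

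The parent is the gene named before -ps. Copies were aligned locally to all transcripts of the parent in GENCODE M21 with Biopython 1.88, and 50-base and 100-base windows were compared with all other M21 transcripts. The edgeR fit and the gap rule were tested on simulated counts. The simulated split for the gap rule was wide and set in genes of higher level than many of the pseudogenes. It does not cover a narrow step such as that of Rps15a-ps8. Alternatives were RLE scaling, DESeq2 1.42.0, other filters, other gap settings, the contrast within each sex, scaling to ribosomal protein genes and leaving out libraries.

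Named are the pseudogenes called for line, the on-off ones and the 5 of highest mean CPM, each with its parent, and up to 3 called ribosomal protein genes in each direction. Genes added for their values are marked in the text as named after these were seen. The members, lists and tests were chosen with earlier results of these data known. Fisher's test takes on-off states that were set without line, and adjustment is over all 66 on-off genes, chosen in place of the 4 alone after seeing the data. Intervals and the limit of 3 counts for a 0 cover counting error only.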

Additional observations from a re-analysis of the deposited data

How the results depend on the processing

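Rpl15-ps2 stayed lower in HDID1 under all 11 alternatives, with log2 fold changes between -3.26 and -2.39. In the contrast within males it missed the threshold, at -2.39 with an adjusted p of 0.0623 by edgeR, and the cause was not tested. With mice split at more than 3 reads, 5 HDID1 and 23 HSNpt mice were on for it.

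The number of pseudogenes that passed, 1 of 19 in the main fit beside 11.7% of all genes, was 2 of 31 with a mean count of 5 or more (11.4% of all genes), 2 of 31 with no filter on low counts (5.08%), 3 of 31 with DESeq2 (11.2%), 3 of 19 with counts scaled to ribosomal protein genes (1.82%), 0 of 19 in males alone (4.23%; 5 of the 19 at an unadjusted p under 0.05) and 1 of 19 in females alone (1.57%). Chosen after seeing the data, it was 2 of 31 in males (3.94%) and 1 of 31 in females (1.57%) with a mean count of 5 or more, 6 of 31 in males (10.8%) and 0 of 31 in females (1.21%) when the 8 libraries of high ribosomal protein gene sums were also left out, 3 of 19 without these 8 in both sexes (13.5%), 4 of 31 when these were left out of the fit on a mean count of 5 or more (13.1%), and 2 of 19 without HSNpt female 5 (10.1%). Over all genes the 1975 calls became 980 without the 6 libraries apart in spiny neuron markers, 264 in females, 714 in males, 307 when scaled to ribosomal protein genes, 1694 without HSNpt female 5, 1708 with no filter, 2279 without the 8 libraries and 2406 with DESeq2. The 3 calls among ribosomal protein genes, beside 11.7% of all genes, became 12 without the 8 libraries, beside 13.5%. The causes were not tested. TMM gave 1008 higher and 967 lower genes, RLE 938 and 1032, and scaling to ribosomal protein genes 64 and 243.

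Rpl3-ps1 passed at -0.51 when scaled to ribosomal protein genes and at -0.44 without HSNpt female 5. Rps2-ps10, at 0.05 in the main fit, turned to -0.0108 without the 6 libraries, -0.0677 in females, -0.11 when scaled to ribosomal protein genes and -0.0032 without the 8 libraries. Rpsa-ps10 turned to 0.81 and Rpl14-ps1 to 0.47 in females. Rplp2-ps1 turned to -0.11 when scaled to ribosomal protein genes, to -0.0322 without the 8 libraries, and to -0.0323 when these were left out of the fit on a mean count of 5 or more. None of these reversed values passed the threshold.

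The on-off count of 4 became 3 at a gap of 1.5 (without Rps15a-ps8), 4 at 0.75, 5 with at least 3 mice on each side and 9 with a prior count of 0.5, which spreads low counts. Gaps in the ratio to the parent, chosen after seeing the data, gave 4, with Rps15-ps2 in place of Rps15a-ps8. A split at more than 3 reads put 35 HDID1 and 32 HSNpt mice on for Rpsa-ps10, a difference in share of 5.88 percentage points against -24.4 by the gap, since its off mice hold up to 43 reads. No paired analysis was possible because the labels give no replicate numbers that the lines share.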
